A study of Taeniopygia guttata with 23 samples.

Results

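Trimethylation of histone H3 at lysine 27 (H3K27me3) was compared between the auditory forebrain of juvenile male zebra finches (Taeniopygia guttata) on day 32 after hatching, called P32, and on day 67, called P67. The libraries were chosen by their labels for mark and age, and they were 5 of the 23 samples of the series, of which 20 had a list of enriched intervals. P32 was 1 library, from males that had stayed in their home aviaries. P67 was 4 libraries, 2 Tutored (males kept from day 21 alongside 1 adult male and 1 adult female) and 2 Isolate (males kept from day 21 with adult females and no adult male), and the labels number them replicate 1 and replicate 2. The labels put the Tutored and Isolate birds at day 67, while the design text of the series gives day 65. All birds were males, the tissue was fixed with formaldehyde before chromatin was immunoprecipitated, and the number of birds behind a library was not given in the sources used here. The labels of P32 and of replicate 1 name the same Millipore antibody, and those of replicate 2 name the mark alone. Since P32 was 1 library, its age, its rearing and its preparation cannot be told apart, and its values are set beside the range of the 4 P67 libraries.

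H3K27me3 is written by Polycomb repressive complex 2, whose catalytic subunit is EZH1 or EZH2, and it marks genes held silent, many of them regulators of development, often in domains far longer than a promoter. H3K4me3 is found at promoters, H3K9me3 in heterochromatin, and RNA polymerase II (Pol II) at transcribed genes, so these serve as landmarks around the Polycomb mark. The auditory forebrain is where a songbird processes heard song, and a young male of this species memorises the song of an adult in the weeks that the compared ages span. Birds have a few large chromosomes and many small ones, the microchromosomes, which are rich in genes and in G and C, and males carry a pair of Z chromosomes.

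The H3K27me3 list of P32 was the shortest of the 5, and its median island length lay between those of the P67 replicates. P32 had 21621 islands, the intervals that the peak caller SICER joins from enriched windows, against 24321 in Tutored 1, 31185 in Tutored 2, 23375 in Isolate 1 and 29322 in Isolate 2. The P32 islands covered 113.0 Mb, against 151.3 Mb in Tutored 1, 116.5 Mb in Tutored 2, 143.7 Mb in Isolate 1 and 118.5 Mb in Isolate 2. P32 was thus 0.853 times the P67 mean of 132.5 ± 17.6 Mb (SD, n = 4), and below each P67 library. An exact permutation test over the 5 libraries gave a two-sided p of 0.4, and 0.2 is the smallest p that 1 library against 4 can give. The median island was 3600 bp long in P32, against 4600 bp in both replicate 1 libraries and 2400 and 2600 bp in Tutored 2 and Isolate 2, so P32 lay between the replicates. Islands of at least 20 kb numbered 556 in P32 and between 415 and 769 in the P67 libraries. With the same number of islands in each library, the densest by reads per kb, the ratio of covered length became 1.003. The number was that of P32, so this setting cut the P67 lists and left the P32 list whole. Cover did not follow the number of islands alone, since Isolate 1 had 23375 islands and the second largest cover. In a bulk tissue such as this, fewer cells with the mark and less of it in each cell cannot be told apart. Reads inside islands numbered 6161227 in P32 and between 5671633 and 8412117 in P67, at 54.5 reads per kb in P32, 42.5 and 39.5 in the replicate 1 libraries and 71.3 and 71.0 in the replicate 2 libraries. The lists carry no gene names and their genome build was not given in the sources used here. The tissue label could not be checked against marker genes for that reason, and positions are those of the deposited islands, counted from 1.

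Islands of the 5 libraries that overlapped or touched were merged into 31910 regions, and a region was called in a library when an island of that library overlapped it by at least 1 bp. P32 shared most of its regions with P67. Of the 17628 regions called in P32, 11659 (66.1%) were called in all 4 P67 libraries, which is 83.5% of the 13965 regions that those 4 had in common, and 15802 (89.6%) were called in at least 1. Another 1826 regions were called in P32 alone (5.72% of the merged regions), and 2306 were called in all 4 P67 libraries and not in P32 (7.23% of the merged regions). The first number lay among those of single P67 libraries, of which Tutored 1 had 1433 regions alone, Tutored 2 had 2219, Isolate 1 had 1110 and Isolate 2 had 1514. The second stood above the like counts for P67, since 385 regions were missing from Tutored 1 alone, 187 from Tutored 2, 730 from Isolate 1 and 340 from Isolate 2 (two-sided exact permutation p = 0.2). These counts for P32 and P67 are not fully alike. Each P67 library has a partner of the same replicate number, with which it deviated together, and P32 has none. The permutation test takes the 5 libraries as exchangeable and leaves that pairing out. With equal numbers of the densest islands, a setting that cut the P67 lists alone, the missing regions were 737. Reads outside islands are not in the lists, so a region without an island has an unknown count and not a count of 0.

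The regions missing from P32 lay mostly on the large chromosomes, and those that P32 had alone lay more often on the small ones. Chromosomes were classed by the highest island end in any list, into 6 large autosomes of at least 50 Mb, the Z chromosome, 8 middle chromosomes and small chromosomes under 20 Mb. P32 lacked 24.4% of the regions called in all P67 libraries on the large autosomes, 29.2% on Z, 11.9% on the middle chromosomes and 3.39% on the small ones. Each P67 library, measured the same way against the other 4, lacked 1.64% to 5.23% on the large autosomes, 1.82% to 4.90% on Z, 1.54% to 5.57% on the middle chromosomes and 1.39% to 7.501% on the small ones. On the small chromosomes P32 therefore lay inside the range of the P67 libraries, and on the other 3 classes above it. These shares have the same limit, that P32 has no partner of the same replicate number. Of its own regions, P32 had 13.2% alone on the small chromosomes, against 2.71% in Tutored 1, 5.63% in Tutored 2, 1.84% in Isolate 1 and 4.54% in Isolate 2. On the large autosomes that share was 8.89% in P32 and between 7.55% and 12.02% in the P67 libraries, so the groups overlapped there. Of the 2306 missing regions, 67.1% lay on large autosomes and 4.64% on small chromosomes. Of the 1826 regions of P32 alone, 34.2% lay on large autosomes and 35.6% on small chromosomes. Over all merged regions these shares were 50.03% and 19.4%. For the regions of 1 P67 library alone they were 58.39% to 66.02% and 6.22% to 13.5%. For the regions missing from 1 P67 library alone they were 36.3% to 44.4% and 21.6% to 33.8%.

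**Figure D1:**
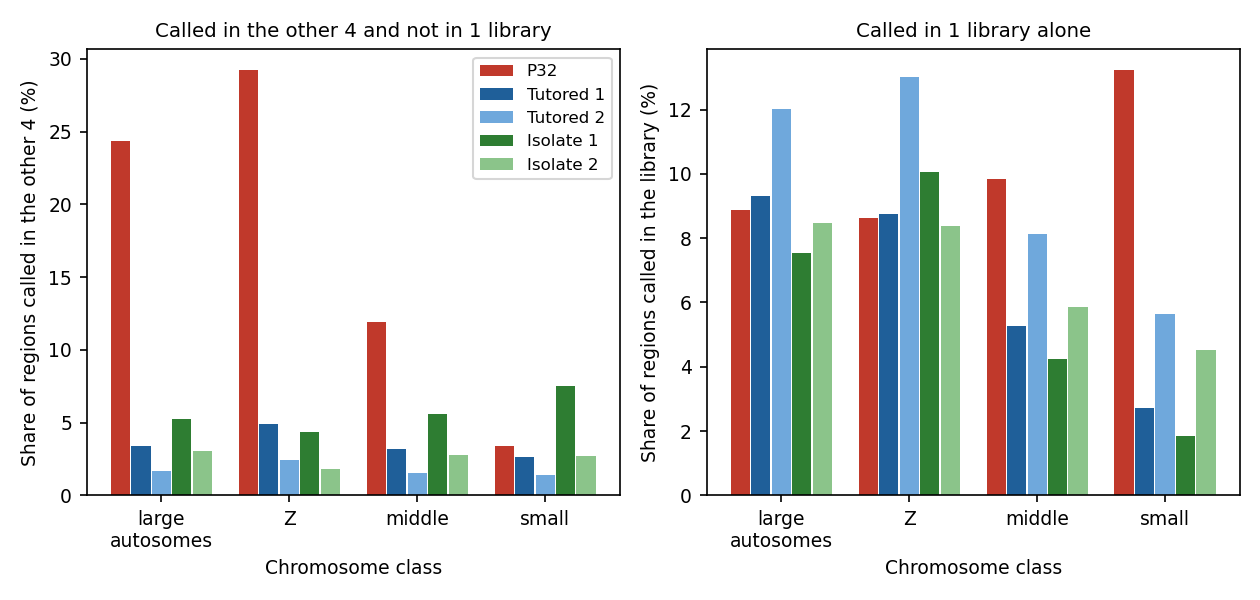
Left, the share of the regions called in the other 4 libraries that a library lacked, and right, the share of a library's own regions that it alone had, in percent, by chromosome class (1 bar per library). P32 lacked 24.4% on the large autosomes, where no P67 library lacked more than 5.23%, and had 13.2% alone on the small chromosomes, where no P67 library had more than 5.63%.

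The same order of classes held in lists with equal numbers of islands. That number was the one of the P32 list, so only the P67 lists were cut. Such a cut can only add regions of P32 alone, so a rise in their number was fixed by the setting. With the densest islands P32 lacked 11.7% of the P67 regions on the large autosomes, 12.8% on Z, 5.21% on the middle chromosomes and 1.11% on the small ones. P32 then had 17.1% of its regions on small chromosomes alone, against 3.20% in Tutored 1, 4.72% in Tutored 2, 2.42% in Isolate 1 and 4.28% in Isolate 2. After islands that overlapped an H3K9me3 island of any library were left out, a setting added after the data were seen, P32 lacked 34.7% on the large autosomes and 11.2% on the small chromosomes, and the missing regions numbered 921. With islands at H3K4me3 left out in the same way, P32 lacked 30.5% on the large autosomes and 6.35% on the small chromosomes. There P32 had 11.4% of its regions on small chromosomes alone, against 3.62% to 8.18% in the P67 libraries. Without islands at H3K9me3 that share was 19.7% in P32 and 6.45% to 14.9% in P67. On Z it was then 20.4% in P32, within the 15.4% to 23.2% of P67. The shares missing from each P67 library were not computed for any of these settings.

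Long domains were rarely missing from P32. An overlap of 1 bp was enough for a call, which a long region meets more readily. The part of that rule in the fall with length was not tested. The P67 libraries were not broken down by length in this way. Of the regions called in all 4 P67 libraries, P32 lacked 12.8% of those under 2 kb, 23.0% of those of 2 to 5 kb, 21.2% of those of 5 to 10 kb, 10.7% of those of 10 to 20 kb, 2.07% of those of 20 to 50 kb and 0 of the 136 of 50 kb or more. The missing regions had a median length of 6200 bp and were less dense in P67 than the shared ones. They held a median of 30.5 reads per kb for Tutored 1, 47.2 in Tutored 2, 29.6 in Isolate 1 and 45.6 in Isolate 2, where the shared regions held 39.4 in Tutored 1, 63.0 in Tutored 2, 36.7 in Isolate 1 and 61.1 in Isolate 2. For comparison, the least dense 5% of the P32 islands had at most 27.5 reads per kb. That limit differed by library, at 24.7 in Tutored 1, 36.5 in Tutored 2, 24.2 in Isolate 1 and 35.6 in Isolate 2. These densities are not scaled between libraries, so they do not say whether the missing regions could have been called in P32. Of the 2306 missing regions, 195 (8.46%) had more reads in every P67 library after scaling to library size (CPM, over the reads in shared regions) than the median region of P32. The regions of P32 alone were short, with a median of 2200 bp and 78 reads, against medians of 3200 bp in Tutored 1, 1000 bp in Tutored 2, 3400 bp in Isolate 1 and 1000 bp in Isolate 2 for the regions that each had alone. The regions of P32 alone lay a median of 30.7 kb from the nearest shared region, against 18.7 to 30.1 kb for those of 1 P67 library alone. The missing regions lay a median of 10.8 kb from the nearest shared region.

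Some regions of P32 alone were long, and the 5 with the most reads lay on the middle and small chromosomes. On chromosome 17 at 8278401 to 8311200, an unbroken P32 island of 32.8 kb held 933 reads, and no P67 library had an island there. That region carried H3K4me3 and Pol II in all 5 libraries, and H3K9me3 in P32 and in no P67 library. On chromosome 19 at 7121201 to 7147600, P32 had 894 reads over 26.4 kb. Its H3K4me3 was called in all 5 libraries, its Pol II in the 4 P67 libraries and not in P32, and its H3K9me3 in P32 and in no P67 library. The next were on chromosome 10 at 1461401 to 1480200 (773 reads in P32), chromosome 22 at 3099401 to 3115600 (578 reads) and chromosome 12 at 3777801 to 3792400 (576 reads). H3K4me3 was called in P32 at all 3 and in 4, 2 and 4 P67 libraries in that order. H3K9me3 was called in P32 at the regions on chromosomes 10 and 12 and in no P67 library at any of the 3. All 5 regions thus had a promoter mark in P32 and in at least 2 P67 libraries.

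The strongest of the missing regions lay on the large chromosomes. On chromosome 2 at 121457601 to 121491400, no P32 island was called, and there were 1055 reads in Tutored 1, 732 in Tutored 2, 1023 in Isolate 1 and 1060 in Isolate 2. Between 16.4 and 31.8 kb of this region were covered in the P67 libraries. H3K4me3 was called there in all 5 libraries, so its promoter mark was called at both ages. A second region on chromosome 2, at 112393801 to 112411400, had 0 P32 islands and 553 reads in Tutored 1, 579 in Tutored 2, 515 in Isolate 1 and 647 in Isolate 2. On chromosome Z at 26523801 to 26541400 P32 again had no island, and there were 502 reads in Tutored 1, 559 in Tutored 2, 382 in Isolate 1 and 552 in Isolate 2. The other 2 were on chromosome 2 at 74632401 to 74660600, with between 519 and 768 reads in the P67 libraries, and on chromosome 3 at 33921801 to 33939600, with between 380 and 594. These last 4 regions carried no H3K4me3 in any library and H3K9me3 in all 4 P67 libraries, and P32 had H3K9me3 at 2 of them, on Z and at 74632401 on chromosome 2.

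Chromosome by chromosome, H3K27me3 cover in P32 relative to P67 ran nearly in the reverse order of chromosome length. Over the 30 chromosomes ranked, P32 covered a smaller share than every P67 library on 11, a share within their range on 5 and a larger share than every P67 library on 14. The 11 were all 6 large autosomes, Z and 4 of the 8 middle chromosomes. The 14 were among the 15 small chromosomes, and the exception, chromosome 14, was covered at 23.5% in P32 and at 19.4% to 24.2% in P67. On chromosome 2, the longest, islands covered 5.55% in P32, against 10.8% in Tutored 1, 7.03% in Tutored 2, 10.3% in Isolate 1 and 7.47% in Isolate 2. Z had the lowest ratio of P32 to the P67 mean (0.603), with 6.08% in P32, 12.2% in both replicate 1 libraries and 7.86% and 8.11% in Tutored 2 and Isolate 2. Chromosome 25, the shortest ranked, had the highest ratio (1.501), with 21.3% in P32, 12.96% in Tutored 1, 15.1% in Tutored 2, 11.1% in Isolate 1 and 17.6% in Isolate 2. Next came chromosome 28, with a ratio of 1.38 and a cover of 18.8% in P32 and 12.5% to 14.1% in P67. The ratios ran from 0.624 to 0.841 on the large autosomes, from 0.865 to 1.08 on the middle chromosomes and from 1.09 to 1.501 on the small ones. Spearman's rho of the ratio with chromosome length was -0.94 over the 30 chromosomes, -0.95 against the replicate 1 libraries and -0.87 against the replicate 2 libraries. These are descriptions without a test, since all chromosomes share the same P32 library.

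**Figure D2:**
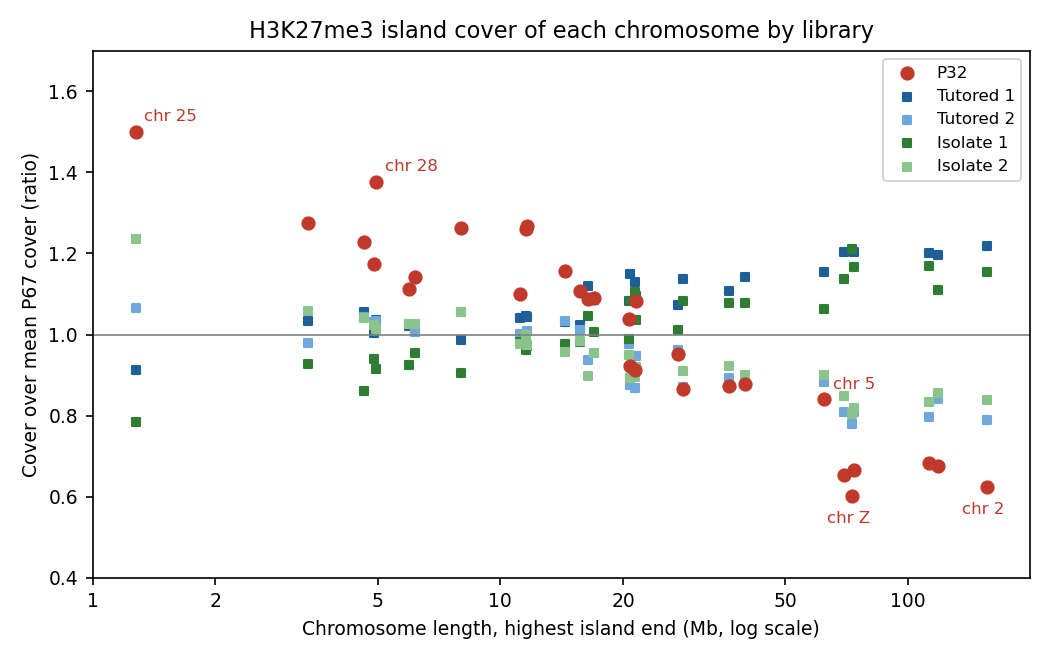
The share of each of 30 chromosomes covered by H3K27me3 islands, divided by the mean of the 4 P67 libraries, against chromosome length in Mb on a log scale (1 point per library and chromosome, P32 as circles). P32 lies between 0.603 and 0.841 on Z and the large autosomes and between 1.09 and 1.501 on the small chromosomes, while the P67 replicates part in opposite directions on the large ones.

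Summed over classes, islands covered 6.79% of the large autosomes in P32 and 9.97% ± 1.97 in P67 (SD, n = 4). Z was covered at 6.08% in P32 and 10.1% ± 2.44 in P67, the middle chromosomes at 15.4% in P32 and 16.6% ± 1.76 in P67, and the small ones at 25.2% in P32 and 21.7% ± 0.698 in P67. The small chromosomes were covered 3.72 times as densely as the large autosomes in P32, against 1.89 in Tutored 1, 2.67 in Tutored 2, 1.85 in Isolate 1 and 2.53 in Isolate 2 (two-sided exact permutation p = 0.2). P32 was thus 1.66 times the P67 mean of 2.24 ± 0.425. It was 1.99 times the mean of the replicate 1 libraries and 1.43 times that of the replicate 2 libraries, so P32 stood above both. The ratio was 1.40 with equal numbers of the densest islands, 1.73 without islands at H3K4me3 and 1.86 without islands at H3K9me3. The other antibodies differed between the ages in the same measure. P32 over the P67 mean was 1.25 for H3K4me3, 4.06 for H3K9me3 and 0.383 for Pol II. Relative to large autosomes, small chromosomes thus had more cover in P32 for both other histone marks and less for Pol II. For H3K4me3 the measure was 3.20 in P32, near the 2.98 of Tutored 1 and 2.91 of Isolate 1, and 2.17 in Tutored 2 and 2.19 in Isolate 2. H3K4me3 cover of the small chromosomes themselves was 7.68% in P32, within the 6.70% to 10.4% of P67. H3K9me3 covered 16.7% of the small chromosomes in P32 and 6.21% ± 0.530 in P67. The part that a shift common to the P32 libraries has in the H3K27me3 values was not tested.

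Cover also varied within chromosome classes, with the number of H3K4me3 regions in the same stretch. The genome was divided into 1003 windows of 1 Mb, grouped by the number of H3K4me3 regions called in all 5 libraries that they held, a rough count of promoters. P32 covered less of the window than every P67 library in 546 windows (54.4%) and more in 169 (16.8%). On large autosomes with under 5 H3K4me3 regions per window, the mean cover was 2.34% in P32, 6.38% in Tutored 1, 3.54% in Tutored 2, 5.96% in Isolate 1 and 3.80% in Isolate 2 (117 windows). With 20 or more, it was 11.7% in P32, 14.7% in Tutored 1, 12.1% in Tutored 2, 13.7% in Isolate 1 and 11.8% in Isolate 2 (48 windows). The ratio of P32 to the P67 mean was 0.475, 0.6002, 0.719 and 0.893 from the poorest to the richest windows of the large autosomes, and 0.723, 0.810, 0.919 and 1.08 on the middle chromosomes. On the small chromosomes it was 1.03, 1.096, 1.09 and 1.22, where the 2 poorest groups had only 8 and 9 windows. On Z the ratios were 0.361, 0.635, 0.595 and 0.883, which do not rise in order, and the richest group had only 2 windows. Windows of like H3K4me3 number still differed by chromosome class, since the richest windows had ratios of 0.893 on the large autosomes and 1.22 on the small chromosomes.

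**Figure D3:**
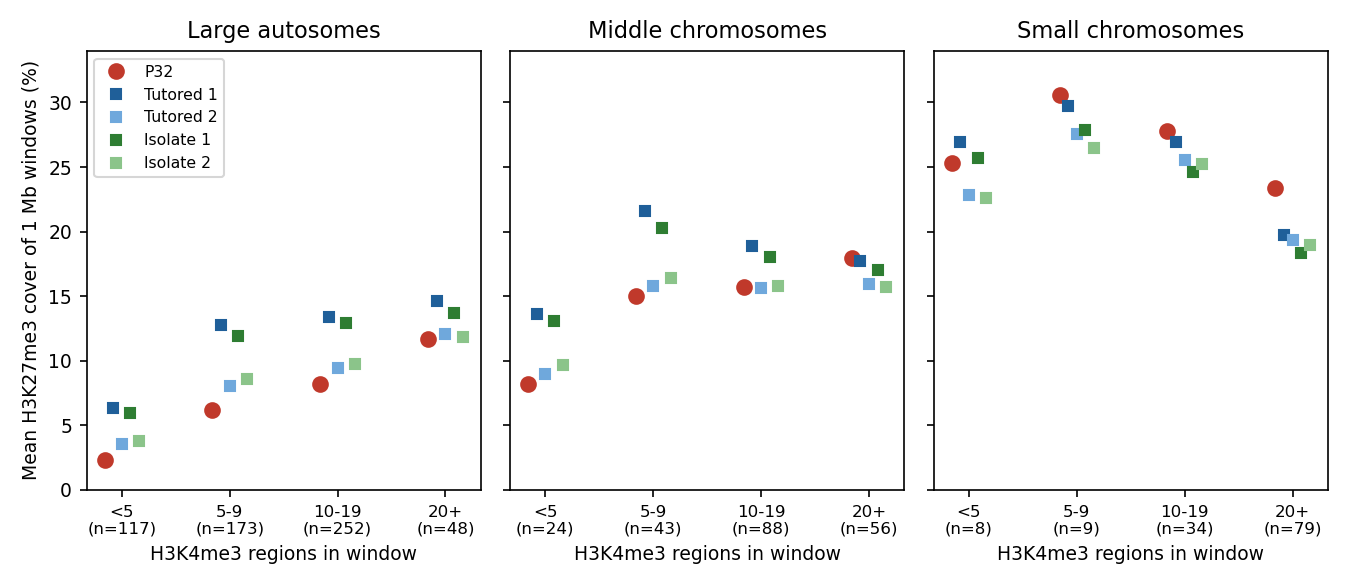
Mean share of 1 Mb windows covered by H3K27me3 islands (percent), by the number of H3K4me3 regions in the window, on the large autosomes, middle and small chromosomes (1 point per library; n counts windows; Z is not plotted). On the large autosomes P32 is lowest of the 5 libraries in each group, and on small chromosomes with 20 or more H3K4me3 regions it is highest, at 23.4% against 18.4% to 19.7% in P67.

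H3K27me3 lay at promoters at a higher share in the P32 library than in any P67 library. Of the H3K27me3 regions called in a library, 25.3% overlapped an H3K4me3 island of the same group and replicate in P32, against 14.5% in Tutored 1, 15.3% in Tutored 2, 14.8% in Isolate 1 and 16.9% in Isolate 2 (P67 mean 15.4% ± 1.08, SD, n = 4; two-sided exact permutation p = 0.2). The share was also higher seen from the promoter side. Of the 13513 H3K4me3 regions called in all 5 libraries, H3K27me3 islands reached 27.8% in P32, against 18.8% in Tutored 1, 21.5% in Tutored 2, 18.9% in Isolate 1 and 21.6% in Isolate 2. At 690 of these 13513 regions H3K27me3 was called in P32 alone. It was called at 41 in Tutored 1 alone, 46 in Tutored 2, 34 in Isolate 1 and 55 in Isolate 2. Over all merged H3K27me3 regions, the counts called in 1 library alone were 1826 in P32 and 1110 to 2219 in P67. P32 has no partner of the same replicate number, so these counts are not fully alike. Only 22 H3K4me3 regions had H3K27me3 in all 4 P67 libraries and not in P32, and 2108 had it in all 5. The lists carry no gene names, so H3K4me3 alone stands for promoters here. The higher share held in each chromosome class, at 25.7% in P32 and 17.2% to 20.7% in P67 on the large autosomes, 25% in P32 and 17.5% to 20.96% in P67 on Z, 27.7% in P32 and 18.7% to 21.1% in P67 on the middle chromosomes, and 32.3% in P32 and 21.6% to 24.1% in P67 on the small ones. On the large autosomes the higher share at promoters thus stood beside a lower cover of the whole.

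Regions that differed in presence differed in the other marks they carried. H3K4me3 was called at 38.4% of the regions of P32 alone when taken from the P32 library, and at 36.4% to 38.7% when taken from the P67 libraries. At the regions missing from P32 these shares were 1.30% from P32 and 1.52% to 2.17% from P67, and at the shared regions 24.1% from P32 and 21.1% to 23.8% from P67. The H3K4me3 islands of either age thus gave nearly the same shares. H3K9me3 was called in P32 at 43.3% of the regions of P32 alone, against 4.98% to 6.52% in the P67 libraries, and in P32 at 12.9% of the missing regions, against 42.5% to 45.2% in P67. Over all merged regions it was called at 32.4% in P32 and at 30.5% to 33.1% in P67, and over the shared ones at 55.1% in P32 and 44.5% to 48.6% in P67. The 43.3% thus lay below the share over all regions called in P32, which was 49.6%. In the series as a whole the H3K9me3 lists of P32 and P67 also had less in common, with a Jaccard index of covered bases of 0.233 to 0.280, than the H3K27me3 lists, with 0.527 to 0.611. Within P67, same-numbered libraries had a mean index of 0.477 for H3K9me3 and 0.687 for H3K27me3, so the H3K9me3 lists also had less in common within 1 age. These means leave out P67 pairs of different number, so they are not a like measure for P32 against P67. The part of H3K9me3 in the H3K27me3 differences was not tested. Pol II was called at 15.99% of the regions of P32 alone in P32 and at 18.8% to 45.1% of them in P67, and over all merged regions at 3.31% in P32 and 5.06% to 11.7% in P67.

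Reads within shared regions were then compared, and these are the reads of islands, without those of bases outside islands. The main edgeR test had no term for the replicate number. Same-numbered P67 libraries deviated together (r = 0.601), so the spread in that test includes the differences between replicate numbers. Among the 11659 regions called in all 5 libraries, edgeR's quasi-likelihood test of P32 against the mean of Tutored and Isolate called 0 regions higher in P32 (0% of those tested) and 0 lower (0%) at a Benjamini-Hochberg adjusted p of 0.05. The smallest adjusted p was 0.439, and at an unadjusted p under 0.05 there were 483 higher and 699 lower. DESeq2 called 35 higher and 255 lower. A replicate block in the same test gave 584 regions higher (5.01%) and 699 lower (6%), a fit in which P32 is taken to have no replicate effect of its own. Against the replicate 1 libraries alone edgeR called 1495 higher and 1760 lower of 12829 regions, and against the replicate 2 libraries alone 0 and 0 of 15105. All of these calls rest on 1 P32 library, whose spread was taken to be that of the P67 groups. In the fits against 1 replicate number, Tutored and Isolate were taken as 1 group. The spread there is that between the rearing groups, and it is not the spread of the main test.

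Set beside the range of the 4 P67 libraries without a test, 298 shared regions had P32 reads over 1.5 times the highest P67 library (2.56% of those tested) and 729 had P32 reads under the lowest by the same factor (6.25%). Without scaling between libraries these were 70 and 1293, and the median log2 difference over all shared regions moved to -0.24. By covered length, 107 regions were longer in P32 than in any P67 library by that factor (0.918%) and 773 were shorter (6.63%). Most of the shorter regions were also lower in reads, since 581 regions met both rules, and 66 were both longer and higher. The reads of a region are those of its islands, so a shorter cover brings fewer reads with it. The rules for length and reads are therefore not independent, and their overlap is no separate support for either.

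The read levels followed chromosome class and promoters as presence did. The median log2 difference of P32 from P67 in shared regions was -0.18 on the large autosomes (4802 regions), -0.20 on Z (485), 0.03 on the middle chromosomes (3326) and 0.19 on the small ones (3046). Against the replicate 1 libraries these medians were -0.25, -0.30, 0.03 and 0.31, and against the replicate 2 libraries -0.10, -0.13, 0.02 and 0.10. Without scaling the small chromosomes stood at -0.056 and the large autosomes at -0.40, which keeps their order but not the sign of the small ones. Shared regions with H3K4me3 in all 5 libraries had a median of 0.30 (2061 regions), and 8.25% of them lay above the P67 range and 1.89% below it. Those with H3K4me3 in no library had a median of -0.09 (8360 regions), with 0.730% above and 7.81% below. The difference between regions with and without H3K4me3 was present in each class, with medians of 0.20 and -0.29 on the large autosomes, 0.05 and -0.33 on Z, 0.31 and -0.04 on the middle chromosomes, and 0.47 and 0.11 on the small ones. Regions with Pol II in all 4 P67 libraries had a median of 0.50 (547 regions). Regions whose H3K9me3 was called in P32 and in no P67 library had a median of 0.33 (1685 regions), and those whose H3K9me3 was called in all P67 libraries and not in P32 had -0.47 (818 regions), of which 163 lay below the P67 range and 0 above it. Domains of at least 20 kb had a median of -0.02 (1460 regions), with -0.26 on the large autosomes, -0.32 on Z, 0.03 on the middle chromosomes and 0.22 on the small ones.

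**Figure D4:**
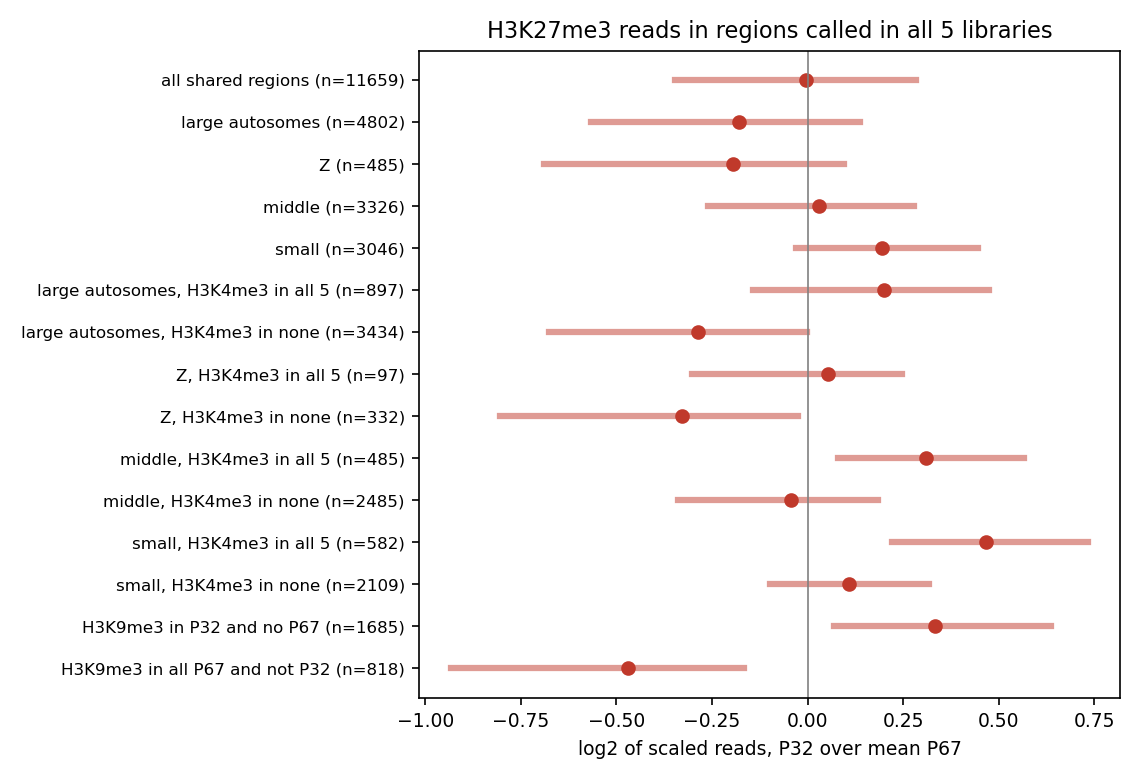
The log2 difference of scaled H3K27me3 reads, P32 over the mean of P67, in regions called in all 5 libraries, by chromosome class and by the other marks called there (points are medians, bars run from the 25th to the 75th percentile, n counts regions). Medians run from -0.47 where H3K9me3 was called in all P67 libraries and not in P32 to 0.47 on small chromosomes with H3K4me3 in all 5 libraries.

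The shared regions that stood highest above P67 all lay on small chromosomes. On chromosome 17 at 3725601 to 3743600, P32 had 115.8 CPM, against 28.4 in Tutored 1, 24.3 in Tutored 2, 20.8 in Isolate 1 and 27.2 in Isolate 2. The P32 domain filled all 18.0 kb of it, where the P67 islands covered 2.6 to 5.0 kb. The log2 difference was 2.20 (SE 0.28), with an edgeR adjusted p of 0.439 and of 0.0164 with the replicate block. On chromosome 19 at 5995401 to 6010600, P32 had 93.5 CPM, against 20.1 in Tutored 1, 15.8 in Tutored 2, 25.8 in Isolate 1 and 24.4 in Isolate 2. A second region on chromosome 19, at 11235201 to 11245600, had 132.4 CPM in P32 and 28.1 to 48.9 CPM in P67. The other 2 were on chromosome 14 at 8854401 to 8860200 (61.1 CPM in P32, 11.9 to 21.1 in P67) and chromosome 24 at 5988401 to 6000600 (102.0 CPM in P32, 22.7 to 37.4 in P67). H3K9me3 was called in P32 at all 5, and in P67 at only 1 of them, at 5995401 on chromosome 19, in 2 libraries. H3K4me3 was called in all 5 libraries at 8854401 on chromosome 14 and at 11235201 on chromosome 19. It was called in P32 alone at 5995401 on chromosome 19, in 1 P67 library alone on chromosome 17, and in no library on chromosome 24. Pol II was called in at least 1 P67 library at each region, and in P32 only at 11235201 on chromosome 19.

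The shared regions furthest below P67 lay on large and middle chromosomes, and none of the 5 carried H3K4me3 or Pol II in any library. On chromosome 3 at 55949601 to 55967200, P32 had 10.4 CPM, against 107.4 in Tutored 1, 64.8 in Tutored 2, 97.9 in Isolate 1 and 85.3 in Isolate 2. Only 1.0 kb of it was covered in P32, against 8.8 to 16.8 kb in P67, and the log2 difference was -3.09 (SE 0.45; edgeR adjusted p 0.439, and 0.0146 with the replicate block). On chromosome 5 at 46581401 to 46591800, P32 had 8.70 CPM, against 60.4 in Tutored 1, 53.7 in Tutored 2, 57.7 in Isolate 1 and 57.3 in Isolate 2. The 4 P67 libraries lay close together there in CPM and the P32 value stood well apart. P32 islands covered only 1.0 kb of that region, against 7.4 to 10.2 kb in P67. These CPM leave out reads outside islands, so the part of covered length in the gap was not tested. The others were on chromosome 1 at 87774601 to 87795400 (15.5 CPM in P32, 92.6 to 135.6 in P67), chromosome 10 at 14313801 to 14332800 (9.08 CPM in P32, 54.1 to 114.3 in P67) and chromosome 2 at 133015401 to 133033000 (11.9 CPM in P32, 69.7 to 105.9 in P67). H3K9me3 was called at each in 2 or 4 P67 libraries, and at none of them in P32. All 10 regions were chosen for their ratio, so the ratios are descriptions.

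**Figure D5:**
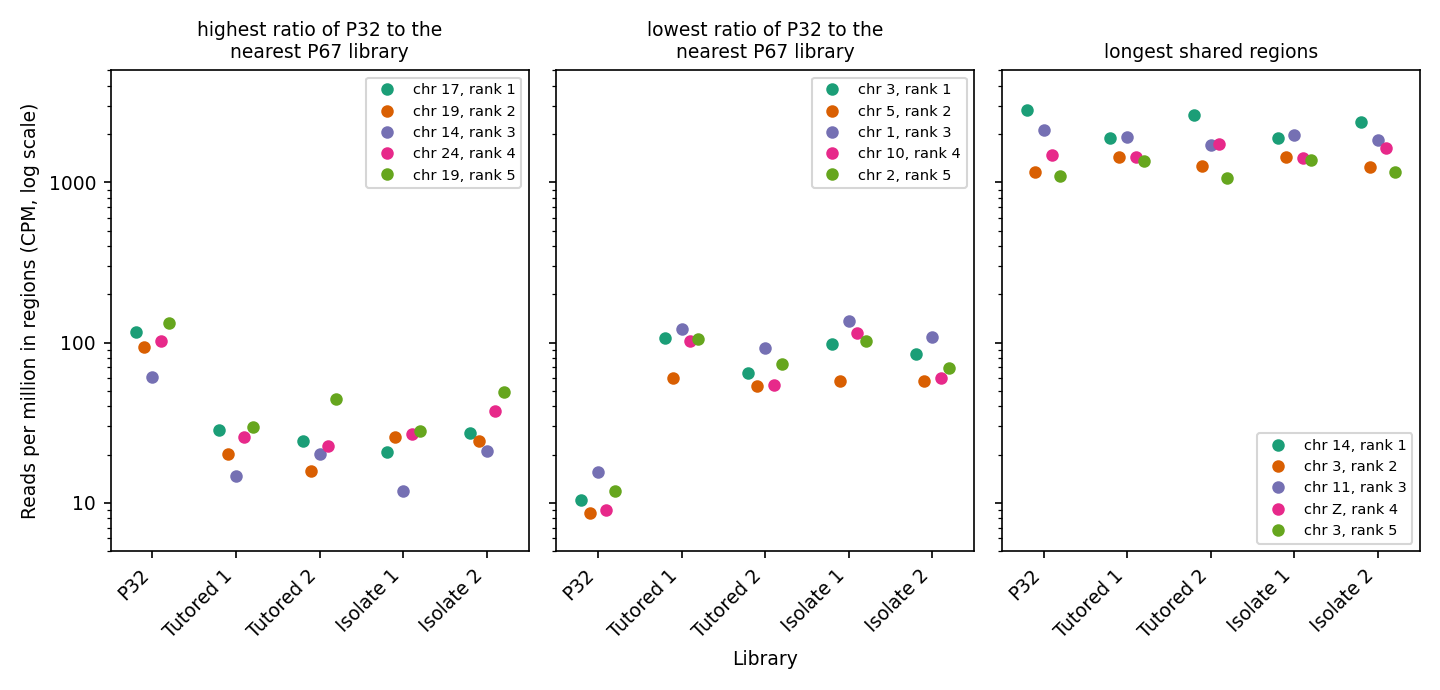
H3K27me3 reads scaled to the reads in shared regions (CPM, log scale) in each library, for the 5 shared regions with the highest and the 5 with the lowest ratio of P32 to the nearest P67 library, and for the 5 longest shared regions. In the first panel P32 lies at 61.1 to 132.4 CPM and P67 at 11.9 to 48.9, and in the second P32 lies at 8.70 to 15.5 and P67 at 53.7 to 135.6. In the third P32 lies above all P67 libraries on chromosomes 14 and 11 and below them at rank 2 on chromosome 3. In the rest of that panel P32 lies within the P67 range.

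The 5 longest regions were taken from those called in all 5 libraries, so their presence at both ages was fixed by that choice. Of the merged regions, all 136 of 50 kb or more were called in all 5 libraries, where an overlap of 1 bp was enough. The longest shared region, which spans 186.2 kb of chromosome 14 from 8526201 to 8712400, had 185.2 kb inside P32 islands, against 176 kb for Tutored 1, 183.4 kb for Tutored 2, 174.8 kb for Isolate 1 and 168.6 kb for Isolate 2. It had 2837 CPM in P32, against 1898 in Tutored 1, 2619 in Tutored 2, 1899 in Isolate 1 and 2369 in Isolate 2 (log2 difference 0.37, SE 0.22, edgeR adjusted p 0.610). On chromosome 3 at 56583001 to 56754200, 129.4 kb were covered in P32 and 138.4 to 167.4 kb in P67, with 1156 CPM in P32 and 1240 to 1447 CPM in P67. The region on chromosome 11 at 7864201 to 8025600 had 2114 CPM in P32 and 1714 to 1984 CPM in P67. On Z at 38826601 to 38986600, 155.2 kb were covered in P32 and 151.8 to 155.6 kb in P67, and 1480 CPM in P32 lay within the 1414 to 1738 CPM of P67. Another region on chromosome 3, at 20885001 to 21039200, had 1099 CPM in P32, within the 1065 to 1379 CPM of P67. None of the 5 left the P67 range by 1.5-fold in either direction.

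The 5 shared regions with the most additional cover in P32 were chosen for that gain. The gain is in summed island length, so it can lie beyond the P67 islands or in gaps between them. On chromosome 2 at 151001 to 174800, near the start of the chromosome, 23.8 kb were covered in P32 by 1 island, against 8.0 kb for Tutored 1, 7.6 kb for Tutored 2, 6.0 kb for Isolate 1 and 10.2 kb for Isolate 2, each also by 1 island. On chromosome 13 at 3596201 to 3637600, 41.2 kb were covered in P32, against 27.8 kb for Tutored 1, 20 kb for Tutored 2, 21.2 kb for Isolate 1 and 17.2 kb for Isolate 2. Its reads were 504.3 CPM in P32 and 156.2 to 189.8 CPM in P67, and H3K4me3 and Pol II were called there in all 5 libraries. The other 3 were on chromosome 11 at 5188801 to 5223400 (34.4 kb in P32, 15.6 to 21.2 kb in P67), on chromosome 5 at 7990201 to 8012200 (22.0 kb in P32, 5.4 to 9.0 kb in P67) and in the region on chromosome 17 at 3725601 described above. H3K9me3 was called in P32 at all 5, in all 4 P67 libraries at the region on chromosome 2, in 3 at that on chromosome 11 and in none at the other 3.

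The regions with the largest deficit of cover in P32 lay on chromosomes 1, 2, 3 and 10. On chromosome 3 at 107292601 to 107331000, 13 kb were covered in P32, against 34 kb for Tutored 1, 28.8 kb for Tutored 2, 36.2 kb for Isolate 1 and 30.2 kb for Isolate 2. Reads there were 89.7 CPM in P32 and 204.4 to 246.5 CPM in P67. On chromosome 1 at 34047801 to 34074600, 4.8 kb were covered in P32 and 18.6 to 23.2 kb in P67, with 27.1 CPM in P32 and 121.3 to 163.2 CPM in P67. Both carried H3K9me3 in all 4 P67 libraries and not in P32, and H3K4me3 in none. On chromosome 2 at 149011401 to 149042600, 7.2 kb were covered in P32 and 20.8 to 30.4 kb in P67, and there H3K4me3 was called in all 5 libraries. On chromosome 3 at 69945601 to 69978400, 5.2 kb were covered in P32 and 18.4 to 30.6 kb in P67. The last, on chromosome 10 at 7949401 to 8002800, had 7.6 kb in P32, against 52.0 kb for Tutored 1, 20.4 kb for Tutored 2, 46.2 kb for Isolate 1 and 21.6 kb for Isolate 2, so the replicates of P67 also lay far apart. At these last 3 regions H3K9me3 was called in P32 too, and in 1, 3 and 4 P67 libraries in the order given. H3K4me3 was also called in all 5 libraries at the region on chromosome 10, and in 2 P67 libraries at 69945601 on chromosome 3.

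By their medians, input reads, given in the replicate 2 lists alone, varied less between kinds of region than the H3K27me3 reads did. The series has a single pooled input for replicate 2, so the Tutored 2 and Isolate 2 values are not separate input measurements. At the missing regions the median input was 12.9 reads per kb for Tutored 2 and 12.6 in Isolate 2, and at shared regions 14.6 in Tutored 2 and 14.4 in Isolate 2. In shared regions above the P67 range it was 16.1 in Tutored 2 and 15.8 in Isolate 2, and in those below the range 13.5 in Tutored 2 and 13.2 in Isolate 2. Regions with H3K4me3 in all 5 libraries had 15.7 in Tutored 2 and 15.6 in Isolate 2, and those with H3K4me3 in none had 14.4 in Tutored 2 and 14.1 in Isolate 2. Single named regions lay further from these medians. The 5 with the largest gain of cover had 22.7 to 29.5 input reads per kb in Tutored 2. The 5 with the largest loss had 11.3 to 15.4. The 5 shared regions with the highest ratio of P32 to P67 had 12.1 to 26.4, and the 5 with the lowest had 11.9 to 15.8. The input of P32 was not analysed here, and the part of background reads in the differences was not tested.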

How the data were processed

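Chromatin immunoprecipitation of H3K27me3 was represented by the list of islands that the authors deposited for each library. Per the submitters' processing notes, the tools included SICER 1.1, MACS and BWA 0.6.1. Per the names of the deposited lists, the islands have a 200 bp window, a 600 bp gap and a false discovery rate of 1E-5. Each island has a deposited count of ChIP reads, with the count of input reads and the authors' fold ratio over input in the replicate 2 lists. The list names carry a tag for some normalization of the reads that no label explains, so sequencing depth is unknown. The genome build was not given in the sources used here, and no gene names or sequences were used. The authors deposited a separate list for each library.

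Islands were merged over the 5 libraries with pandas 2.3.3 in Python 3.11.15, and reads and covered bases were summed per region. Regions called in all 5 libraries were tested with edgeR 4.0.16 (robust quasi-likelihood, TMM scaling) in R 4.3.3, and DESeq2 1.42.0 was an alternative tool. The standard error is the log2 fold over the root of F. Very short sequences (LG2, LG5, LGE22, 1B and 16) were not ranked as chromosomes. Replicate numbers were read as pairing the P67 libraries, because the labels describe a pooled input for each number, and same-numbered libraries deviated together across shared regions (r = 0.601). Nothing in the labels says that replicates were separate birds, so the p-values cover the spread among the deposited samples alone, which may be technical. Alternatives were other scalings, a minimum of reads, regions called in at least 2 libraries, islands within 1 kb merged, a 50% overlap, equal numbers of the densest islands, each P67 library left out, and each replicate number alone.

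The named regions were the 5 of P32 alone with the most reads, the 5 missing ones whose lowest P67 CPM was highest, the 5 shared ones with the highest and the 5 with the lowest ratio to the nearest P67 library, the 5 longest, and the 5 with the largest gain and the 5 with the largest loss of cover beyond the P67 range. The libraries, regions and tests were chosen with earlier results of these data known.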

Additional observations from a re-analysis of the deposited data

How the results depend on the processing

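The 12 main results had 134 alternative values, of which 93 kept their direction and stayed within 1.5 times, or on the same side of the threshold. Cover of small over large chromosomes, at 1.66 times P67, ranged from 1.40 to 1.99 over all its alternatives, and the excess of H3K27me3 regions at H3K4me3, at 9.88 percentage points, ranged from 6.13 to 11.8 wherever islands at H3K4me3 were kept. Regions of P32 alone (1826) numbered 3413 against the replicate 1 libraries alone, 1114 without islands at H3K4me3 and 1196 without islands at H3K9me3. Missing regions (2306) numbered 737 with equal numbers of the densest islands, 1451 with a 50% overlap, 4355 and 6265 against replicate 1 and replicate 2 alone, where fewer libraries must share a region, and 921 without islands at H3K9me3. The calls of 0 higher and 0 lower became 35 and 255 with DESeq2, 584 and 699 with the replicate block, 1495 and 1760 against replicate 1 alone, and 0 and 0 against replicate 2 alone. Without scaling 30 were lower, and with regions called in at least 2 libraries 328 were lower, where uncalled libraries count as 0 reads. Regions above the P67 range (298) numbered 70 without scaling, 1051 in regions called in at least 2 libraries, 1348 and 839 against replicate 1 and replicate 2 alone, and 374 to 479 when 1 P67 library was left out, the last without Isolate 2. Regions below it (729) numbered 1293 without scaling, 3051 in regions called in at least 2 libraries and 2115 against replicate 1 alone. Longer domains (107) numbered 416 and 914 against replicate 1 and replicate 2 alone, and 163 to 215 with 1 library left out. Shorter domains (773) numbered 237 with the densest islands, 2340 against replicate 1 alone, and 742 to 1179 with 1 library left out, the last without Tutored 2. Without islands at H3K4me3, 33 were longer and 670 shorter, and without islands at H3K9me3, 21 were longer and 164 shorter, settings added after the data were seen.

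The covered length ratio (0.853) became 1.003 with the densest islands. The ratio of median island length (1.01) became 0.986 with islands of at least 50 reads 0.783 against replicate 1 alone and 1.44 against replicate 2 alone, and ranged from 0.915 to 1.12 with 1 library left out. Of 192 alternative values for 24 named regions, 190 kept their direction. The region on chromosome 11 at 7864201 moved to -0.041 on the log2 scale without scaling, and that on Z at 38826601 to 0.057 against replicate 1 alone. The cause of these shifts was not tested. A minimum mean of 50 reads removed no shared region. Depth is unknown, and reads outside islands are not in the lists. Of 55 values of the P67 group, 0 lay far enough from the other libraries to be listed as outliers, where chance gives about 1 in 20. That rule looks for 1 library apart from the rest, so it cannot find a split by replicate number. The 55 values are also not independent, so the count of 0 does not show that the P67 libraries were alike.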
